A study of Homo sapiens with 6 samples.

Results

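The autophagy machinery and its cargo receptors were followed as 37 named genes in MDA-MB-231, a human cell line from a triple-negative breast cancer. The members were taken by gene symbol, and the set was chosen with earlier results of these data known. All 37 of 37 were found among 41471 symbols of a CDK16 knockdown experiment and 34157 symbols of a rebastinib experiment. Messenger RNA had been sequenced from 6 libraries, 1 for each condition. In the knockdown experiment the cells carried CDK16-sh1, CDK16-sh2 or, as the control, a scramble hairpin, delivered by lentivirus with a GFP marker used for sorting, so all 3 libraries came from infected and sorted cells. In the Reb experiment the cells spent 48 h in DMSO, in 1 μM Reb or in 5 μM Reb. Rebastinib (Reb) is a small-molecule kinase inhibitor that was proposed as an inhibitor of CDK16 and also acts on other kinases, among them ABL and TIE2. No condition had a replicate, so no difference between libraries given here has a replicate check.

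Autophagy is the route by which a cell encloses part of its cytoplasm in a membrane sac, the autophagosome, and delivers it to the lysosome. The ULK kinase complex starts it when nutrients are short, and a lipid kinase complex built on BECN1 and PIK3C3 then marks the growing membrane with phosphatidylinositol 3-phosphate. WIPI proteins read this lipid, ATG2 and ATG9 proteins supply lipid to the membrane, and a ubiquitin-like conjugation system attaches the ATG8 proteins, LC3 and GABARAP, to it. Receptors such as SQSTM1 and NBR1 bind both ubiquitin and an ATG8 protein, so that cargo is taken in selectively, and STX17 drives fusion with the lysosome. Most control of the pathway is at the protein level. Transcript levels therefore describe the supply of its parts and not its activity, which was not measured in these libraries.

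Total counts ranged from 25838443 to 50303269. CDK16, the targeted gene, had 3223 counts with the scramble hairpin, 1360 with CDK16-sh1 and 846 with CDK16-sh2. The mesenchymal markers VIM, CD44, ZEB1, SNAI2 and CAV1 were detected in all 6 libraries, with VIM between 177 and 833 RPKM, and ESR1, PGR, FOXA1 and CDH1 were at most 0.21 RPKM. GATA3, listed as low in this line, reached 3.75 RPKM. Markers of blood, endothelial and liver cells did not exceed 0.41 RPKM. Mitochondrial transcripts took 16.2% of the counts in CDK16-sh2 and 16.4% at 5 μM Reb, against 7.19% to 11.3% in the other libraries. Scaling without them is among the alternatives given below, and any other part they have in the differences was not tested. Each library is bulk RNA, in which fewer cells with a transcript and less transcript per cell cannot be told apart.

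The levels of the members are given first, as the deposited RPKM, counts divided by gene length and by library total, which allow genes of different length to be compared. In the scramble library they spanned 0.0511 to 52.5 RPKM, with a median of 4.73 RPKM, and the median in the DMSO library was 4.78 RPKM. ATG10, OPTN, SQSTM1, GABARAP and ATG101 led the order in the scramble library at 52.5, 34.3, 34.0, 30.9 and 27.1 RPKM. Neighbours in this order, such as OPTN and SQSTM1, cannot be ranked, since their levels differ by less than either differs between the control libraries. With DMSO the highest level was that of OPTN at 57.9 RPKM, followed by ATG10 at 39.5, CALCOCO2 at 26.1, TAX1BP1 at 21.7 and ATG101 at 20.8 RPKM. All 5 receptors were thus among the 10 highest members in both controls, while the kinases that start and lipid-mark the process were near its lower end, with ULK1 at 1.79 and 2.85 RPKM and PIK3C3 at 2.36 and 1.94 RPKM in the scramble and DMSO libraries. ULK2 was the lowest member in both, at 0.05 and 0.06 RPKM. The level of ATG10, which encodes the E2-like enzyme of ATG12 conjugation, carries a limit. Its annotated exons share 374 bases with RPS23, a highly expressed ribosomal protein gene on the other strand, and whether strand was used in counting is not given in the sources used here. The level of GABARAP is limited too, since 691 of its 2266 exon bases are shared with CTD-2545G14.7 on the same strand.

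**Figure D1:**
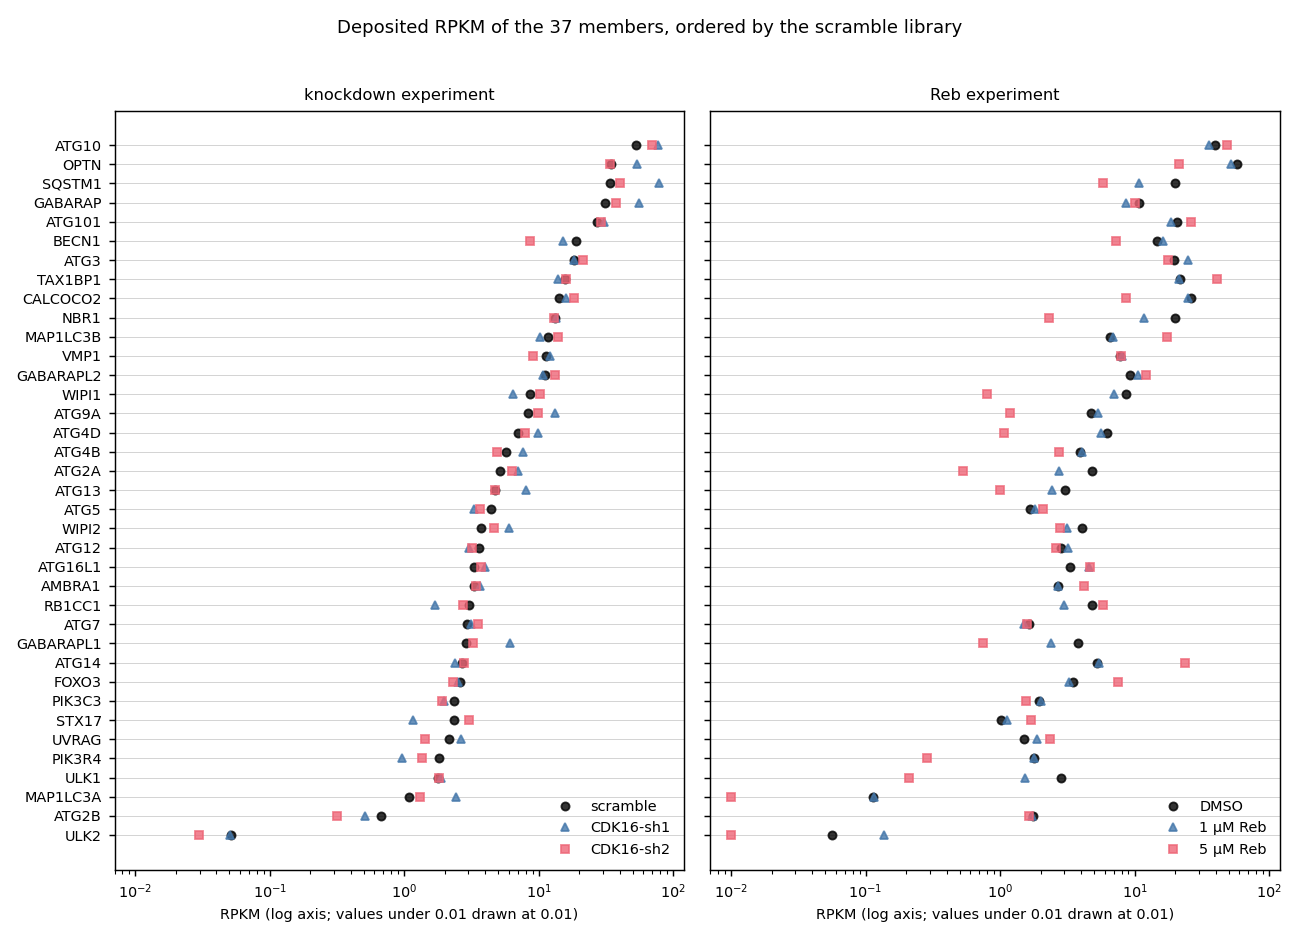
Deposited RPKM (log axis) of the 37 members in the 3 libraries of the knockdown experiment (left) and of the Reb experiment (right), ordered by the scramble library, with a symbol for each library. The levels run from 52.5 RPKM for ATG10 to 0.05 RPKM for ULK2 in the scramble library, and the squares of 5 μM Reb stand away from the other symbols for ULK1, WIPI1, ATG2A, NBR1 and ATG14.

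Differences were expressed as log2 fold changes against the control library of the same experiment, from CPM (counts relative to the library size, scaled by edgeR's TMM method) with a prior count of 2. A gene entered if its mean CPM over the experiment reached 1, and the threshold was 2-fold. Of the 37 members, 36 passed this filter in the knockdown experiment (all but ULK2) and 35 in the Reb experiment (all but ULK2 and MAP1LC3A). Counting intervals are exact (Clopper-Pearson) with 95% confidence, come from how a gene's reads divide between a treated library and its control, and cover counting error only.

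In CDK16-sh1, 3 members were at least 2-fold higher than in the scramble library, where 4.33% of all genes were, and 0 were at least 2-fold lower, where 6.86% of all genes were. In CDK16-sh2, 0 members were 2-fold higher and 0 lower, against 2.2% and 7.62% of all genes. At 1 μM Reb the members past 2-fold numbered 0 higher and 0 lower, beside 1.28% and 1.92% of all genes. At 5 μM Reb, 11 of the 35 members, or 31.4%, were at least 2-fold higher than with DMSO, where 23.6% of all genes were, and 9, or 25.7%, were at least 2-fold lower, where 27.2% of all genes were. The members' shares at 5 μM were thus close to those of all genes, and under TMM similar shares of all genes lay on each side. For the members the median log2 fold changes with CDK16-sh1, CDK16-sh2, 1 μM Reb and 5 μM Reb were 0.14, 0.27, −0.07 and 0.58, and for all genes 0.00, 0.02, 0.00 and −0.07.

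The scaling matters for the 5 μM library. With library totals in place of TMM, all genes shifted there by a median of −0.68 (log2), 43.4% of all genes were at least 2-fold lower and 11.7% higher, and 13 members were lower and 3 higher. The members' median was then −0.11. Under TMM without mitochondrial transcripts 9 members were lower and 11 higher at 5 μM, where 27.2% and 23.5% of all genes were. The members' median was then 0.58 at 5 μM and 0.27 in CDK16-sh2. All 9 members called lower under TMM remained past 2-fold under DESeq2 size factors, library totals, TMM without mitochondrial transcripts and RPKM. Of the 11 called higher, only ATG14, MAP1LC3B and FOXO3 did, and for PIK3C3, WIPI2, ATG2B, ATG3, ATG4B, ATG7, ATG12 and GABARAP the direction itself changed with the scaling. In CDK16-sh2 the direction changed with the scaling for RB1CC1, ATG12, NBR1, OPTN and FOXO3, and at 1 μM Reb for PIK3C3, ATG14 and ATG4B. In the Reb experiment the log2 fold changes of all genes also went with GC content. Across 13202 genes, which are not independent replicates, Pearson r was −0.305 at 1 μM and −0.217 at 5 μM. With the trends on gene length and GC content removed, 7 members were 2-fold lower and 9 higher at 5 μM. The shares of all genes were then 26.04% and 21.2%.

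**Figure D2:**
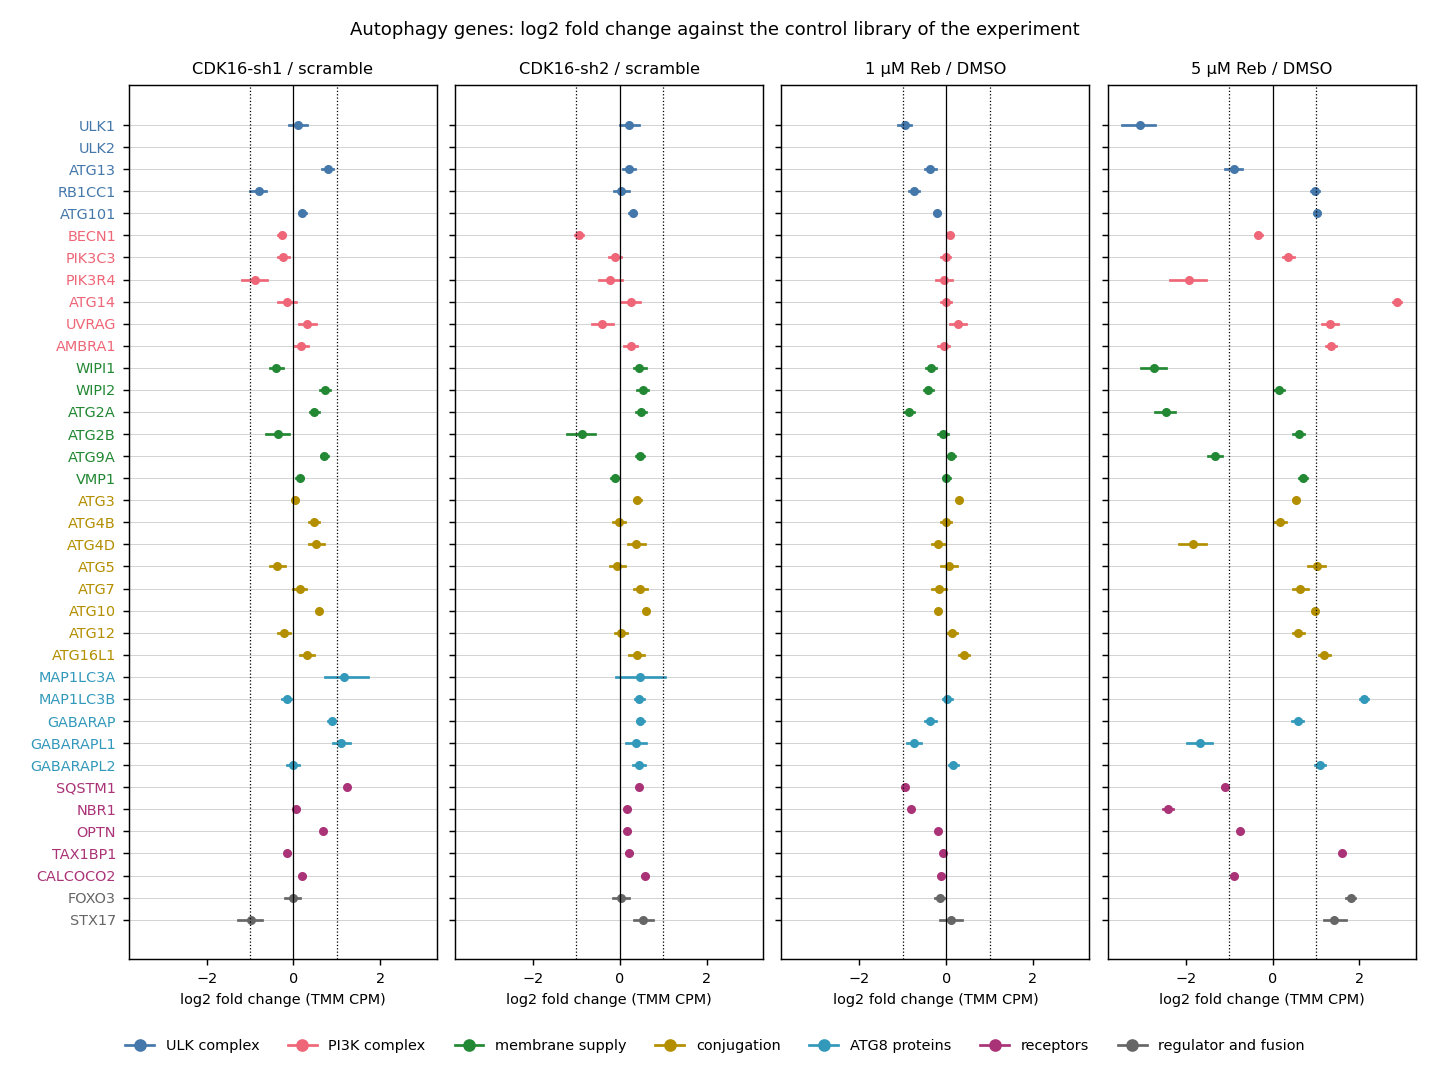
Log2 fold change (TMM-scaled CPM, horizontal axis) of each member that passed the filter in each treated library against its control library, coloured by role, with bars for 95% counting intervals and dotted lines at 2-fold. The values of CDK16-sh2 and 1 μM Reb stay within the dotted lines, those of CDK16-sh1 pass them for 3 members, and those of 5 μM Reb run from −3.05 for ULK1 to 2.87 for ATG14.

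**Figure D3:**
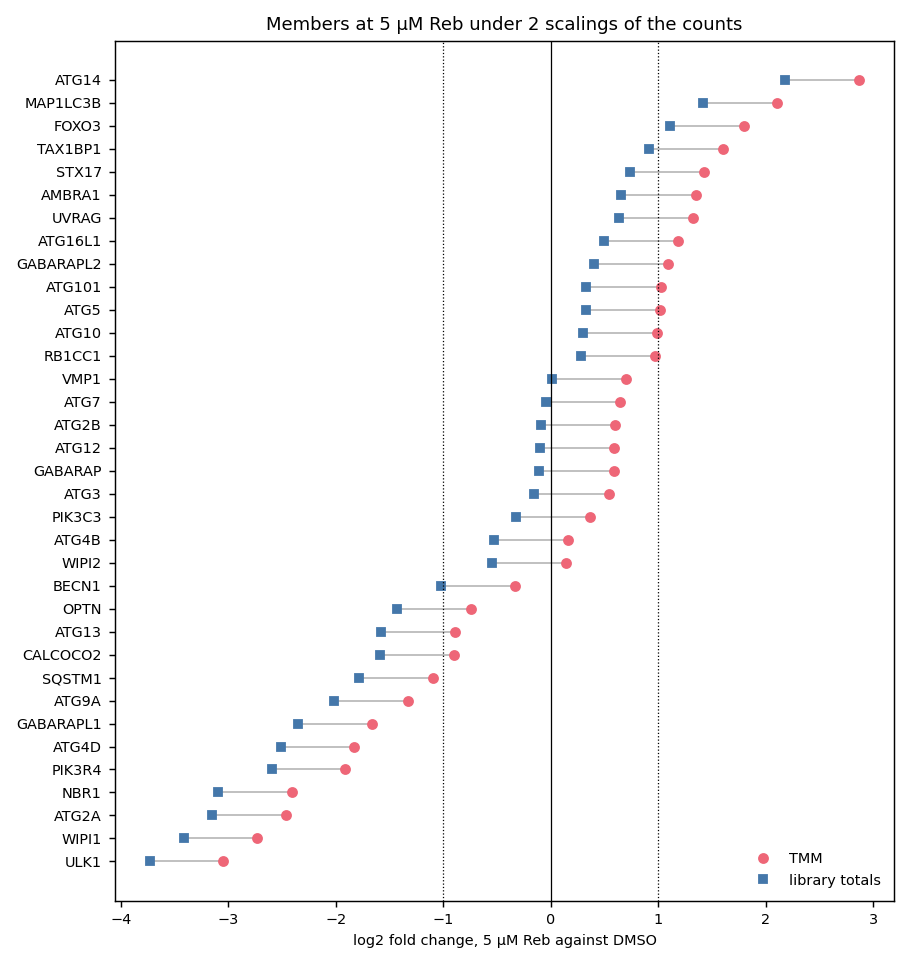
Log2 fold change at 5 μM Reb against DMSO for the 35 members that passed the filter, under TMM (circles) and under library totals (squares), ordered by the TMM value, with dotted lines at 2-fold. Every square lies to the left of its circle, and 9 members stay left of the lower dotted line under both scalings while 3 stay right of the upper one.

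The ULK complex consists of the kinases ULK1 and ULK2 with the partners ATG13, RB1CC1 and ATG101. ULK1, which lies on chromosome 12 of GRCh38 from 131894651 to 131923167, had 1091 counts with DMSO, 572 with 1 μM Reb and 60 with 5 μM Reb. The counts were lower at each higher dose, and the log2 fold changes were −0.95 (counting interval −1.10 to −0.81) and −3.05 (counting interval −3.48 to −2.70), the lowest value at 5 μM of the members that passed the filter. ULK1 has a GC content of 64.2%, and among the alternatives run its value at 5 μM reached up to −2.36. In the knockdown experiment ULK1 had 351, 455 and 380 counts in the scramble, CDK16-sh1 and CDK16-sh2 libraries, log2 fold changes of 0.10 and 0.22. Its partners did not all lie on the same side at 5 μM. ATG13, an adaptor of the kinase, was at −0.89, inside 2-fold, and at −1.58 by library totals, past 2-fold, while ATG101, which binds ATG13, was at 1.02 and RB1CC1, the scaffold of the complex, at 0.97. ATG101 and RB1CC1 were inside 2-fold by library totals, at 0.33 and 0.28. In CDK16-sh1 the partners differed as well, with ATG13 at 0.79 and RB1CC1 at −0.80. At 1 μM all 4 members of the complex that passed the filter were below DMSO, between −0.95 and −0.20. ULK2 rested on few reads, with 13, 16 and 8 counts in the scramble, CDK16-sh1 and CDK16-sh2 libraries and 28, 66 and 2 counts with DMSO, 1 μM and 5 μM Reb. Its counting intervals were 0.56 to 1.91 at 1 μM and −5.81 to −0.71 at 5 μM.

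In the lipid kinase complex, ATG14 had the highest log2 fold change at 5 μM of the members that passed the filter. ATG14 targets the complex to the site where autophagosomes form, and its gene lies on chromosome 14 from 55366392 to 55411858. The DMSO library held 1335 counts, the 1 μM library 1348 and the 5 μM library 4527. Its level was the same at the low dose within counting error, with a log2 fold change of −0.01 (counting interval −0.12 to 0.10), and higher at the high dose, with 2.87 (counting interval 2.78 to 2.96) under TMM and 2.18 under library totals. The scramble, CDK16-sh1 and CDK16-sh2 libraries held 350, 382 and 386 counts of ATG14, with log2 fold changes of −0.15 and 0.25. UVRAG, which takes the place of ATG14 in another form of the complex, had 481, 590 and 559 counts with DMSO, 1 μM and 5 μM, and its log2 fold change at 5 μM was 1.32 under TMM and 0.63 under library totals. AMBRA1, a regulator that links the complex to ULK1, had 1035, 1014 and 1223 counts and stood at 1.35 and 0.66.

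The core subunits moved differently. PIK3R4, the regulatory subunit that anchors the kinase, on chromosome 3 from 130678935 to 130746829, held 479 counts with DMSO, 470 with 1 μM Reb and 58 with 5 μM Reb. Its log2 fold changes were −0.05 (counting interval −0.24 to 0.14) and −1.92 (counting interval −2.36 to −1.54). PIK3C3, the catalytic subunit, was at 0.36 under TMM and −0.33 under library totals, so its direction at 5 μM depends on the scaling. BECN1, the subunit that recruits the other regulators, had 4735, 5124 and 1746 counts, with 0.09 (counting interval 0.03 to 0.15) at 1 μM and −0.33 (counting interval −0.41 to −0.25) at 5 μM, which under library totals was −1.02, past 2-fold. In the knockdown experiment BECN1 had 3119, 3122 and 1515 counts, and its log2 fold change of −0.93 (counting interval −1.02 to −0.85) in CDK16-sh2 was the lowest in that library of the members that passed the filter. CDK16-sh1 gave −0.28 for BECN1. Under library totals the value of CDK16-sh2 was −1.13, past 2-fold. Exons of BECN1, on chromosome 17 from 42810134 to 42833350, share 795 bases with CNTD1 and 300 with PSME3, both on the other strand.

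The sequence at the starts of the members' genes was examined for short motifs that factors tied to autophagy, stress or proliferation are known to read. The RefSeq promoter table of GRCh38.p14, with 250 bases before and 50 after a gene's start, held 32 of the 37 members. Positions count from its starts, which can differ from the gene spans given here, taken from the deposited counts. The GABARAPL1 stretch printed below lies inside the span given for that gene, and the ATG14 stretch overlaps its span. On both strands the letters CACGTG (an E-box, read by the TFEB family, MYC and USF), TGACGTCA (a cAMP response element), TTGCATCA (a composite C/EBP and ATF element), GTAAACA (a forkhead element, the kind FOXO3 reads), TTTCCCGC and TTTGGCGC (E2F elements) were searched. The E-box was found at ATG14 and ATG3 and in 7.26% of all promoters in the table, the cAMP response element at GABARAPL1 and in 1.85%, and the forkhead element at CALCOCO2 and in 3.42%. The other 3 sets of letters were found at 0 members and in 0.866%, 1.63% and 0.652% of all promoters. No match overlapped a match to another of these motifs. ATG3 also held CACGTG from position 6, after the start, and that stretch is not printed. The 4 stretches that hold a match upstream of the start are printed 5′ to 3′ along the gene, with the motif in capitals, since the values of these genes at 5 μM lay far apart.
ATG14 (chr14:55411834-55411863, minus strand, motif from position −21): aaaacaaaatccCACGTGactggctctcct
ATG3 (chr3:112561963-112561992, minus strand, motif from position −18): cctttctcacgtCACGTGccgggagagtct
GABARAPL1 (chr12:10212836-10212865, plus strand, motif from position −30): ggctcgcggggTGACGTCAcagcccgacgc
CALCOCO2 (chr17:48830798-48830827, plus strand, motif from position −226): aaaaaagaaaaGTAAACAgcttcttccagg
The genes that shared the E-box letters had different values at 5 μM, 2.87 for ATG14 and 0.54 for ATG3 under TMM (2.18 and −0.15 under library totals). A match describes the letters in this window and is not a measured binding site.

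Among the genes of membrane supply, WIPI1, ATG2A and ATG9A were at least 2-fold lower at 5 μM and 0 of the 6 were 2-fold higher. WIPI1, which binds the lipid made by the complex and lies on chromosome 17 from 68420948 to 68457513, was counted 1487 times with DMSO, 1179 times with 1 μM Reb and 103 times with 5 μM Reb. Its log2 fold changes were −0.36 (counting interval −0.47 to −0.25) and −2.73 (counting interval −3.05 to −2.45). WIPI1 shares 828 exon bases with ARSG on the other strand, which had 691, 506 and 44 counts, and the part of ARSG was not tested. ATG2A, a lipid transfer protein gene on chromosome 11 from 64894546 to 64917248, had 1894, 1065 and 158 counts, and was below DMSO at both doses, by −0.85 (counting interval −0.96 to −0.75) and −2.47 (counting interval −2.72 to −2.24). Among the alternatives run, ATG2A at 5 μM reached up to −1.77. The close relatives of WIPI1 and ATG2A did not share such values. WIPI2 was at 0.15 and ATG2B at 0.60 at 5 μM, both below 0 under library totals, at −0.54 and −0.09. ATG9A encodes the membrane-spanning lipid scramblase of the pathway and lies on chromosome 2 from 219209772 to 219229717. It had 1955, 2159 and 360 counts, a log2 fold change of 0.12 (counting interval 0.03 to 0.21) at 1 μM and of −1.33 (counting interval −1.50 to −1.17) at 5 μM. With the trends on gene length and GC content removed, the value of ATG9A at 5 μM was −0.70, inside 2-fold. Of its exon bases 34.9% are shared with ABCB6 on the same strand, so that strand cannot separate the reads of these genes. ABCB6 had 512, 724 and 58 counts, and its part in the values of ATG9A was not tested. VMP1, an endoplasmic reticulum scramblase, was at 0.70 under TMM and 0.01 under library totals.

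In the knockdown experiment WIPI2, ATG2A and ATG9A were above the scramble library with both hairpins, each inside 2-fold. The values were 0.72, 0.48 and 0.71 in CDK16-sh1 and 0.52, 0.49 and 0.47 in CDK16-sh2. Under library totals those in CDK16-sh2 were 0.33, 0.30 and 0.27. Among the alternatives run, ATG2A in CDK16-sh1 reached down to 0.10. These values share 1 scramble library. WIPI1 lay on opposite sides of the scramble library, with 758, 695 and 964 counts and log2 fold changes of −0.40 (counting interval −0.55 to −0.25) and 0.45 (counting interval 0.31 to 0.59), so that the gap between the hairpins was beyond counting error. ATG2B had the next lowest value in CDK16-sh2 after BECN1, with 258, 242 and 129 counts and −0.88 (counting interval −1.21 to −0.58).

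**Figure D4:**
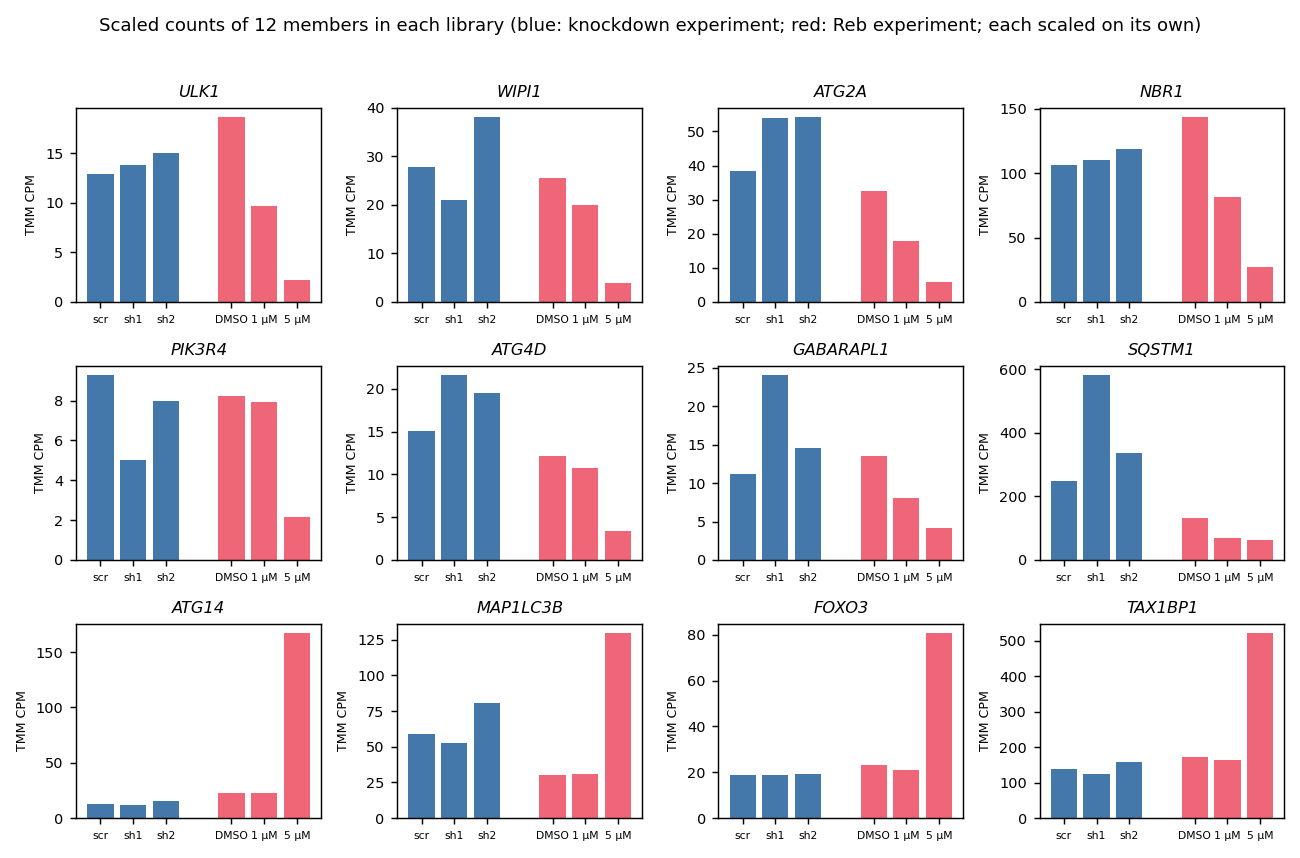
Scaled counts (TMM CPM, axis from 0) of 12 members in the scramble (scr), CDK16-sh1 and CDK16-sh2 libraries (blue) and in the DMSO, 1 μM and 5 μM Reb libraries (red), 1 bar for each library. The upper 8 panels hold members at least 2-fold lower at 5 μM Reb, such as NBR1 with 144, 81.7 and 27.0 CPM, and the lower 4 hold members that were higher, such as ATG14 with 22.9, 22.7 and 167 CPM.

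The 8 conjugation genes encode the enzymes that join ATG12 to ATG5 and the ATG8 proteins to lipid. At 5 μM, 1 of them was 2-fold lower, 2 were 2-fold higher and 5 lay between. The lower one was ATG4D, a protease of the family that trims ATG8 proteins, on chromosome 19 from 10543895 to 10553418. It had 710, 637 and 92 counts and log2 fold changes of −0.18 (counting interval −0.34 to −0.02) and −1.83 (counting interval −2.17 to −1.52), whereas ATG4B, the main protease of that family, was at 0.16 under TMM and −0.53 under library totals. ATG4D shares 341 exon bases with KRI1 on the other strand, which had 33392 counts with DMSO and 2964 at 5 μM. The higher ones were ATG16L1, which places the conjugation enzyme on the membrane (1005, 1364 and 1063 counts, 1.19 at 5 μM), and ATG5, part of that enzyme (466, 498 and 438 counts, 1.02). By library totals both were inside 2-fold, at 0.50 and 0.33. ATG16L1 also had the highest value at 1 μM of the members that passed the filter, 0.42 (counting interval 0.30 to 0.54). ULK2, under the filter, was at 1.15 there. ATG3 and ATG10, the E2-like enzymes, were at 0.54 and 0.99 at 5 μM, ATG7, the E1-like enzyme, at 0.64 and ATG12 at 0.59.

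With the hairpins the conjugation genes stayed inside 2-fold, between −0.37 and 0.58 in CDK16-sh1 and between −0.06 and 0.61 in CDK16-sh2. ATG10 had the highest value in CDK16-sh2 of the members that passed the filter. It had 7389, 13401 and 10480 counts in the knockdown experiment, log2 fold changes of 0.58 and 0.61, and its neighbour RPS23 had 9433, 15959 and 12690 counts, log2 fold changes of 0.48 and 0.53. ATG5 had 630, 590 and 562 counts, with −0.37 (counting interval −0.54 to −0.21) and −0.06 (counting interval −0.22 to 0.11). Under the alternatives given below, its value in CDK16-sh1 ran from −0.40 to 0.07, so its direction there depends on the processing.

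The ATG8 proteins themselves diverged at 5 μM. MAP1LC3B encodes LC3B, the ATG8 protein most often used to mark autophagosomes, and lies on chromosome 16 from 87383995 to 87404779. Its counts were 1757 with DMSO, 1822 with 1 μM Reb and 3511 with 5 μM Reb, with log2 fold changes of 0.03 (counting interval −0.07 to 0.12) and 2.11 (counting interval 2.02 to 2.19), and was at 1.42 by library totals. GABARAPL1, on chromosome 12 from 10212458 to 10223130, went the other way with 786, 478 and 114 counts, −0.74 (counting interval −0.91 to −0.58) and −1.67 (counting interval −1.97 to −1.39). GABARAPL2 had 1402, 1595 and 1387 counts and was at 1.09, or 0.40 by library totals, and GABARAP was at 0.58 or −0.11. MAP1LC3A had 10, 10 and 0 counts. The limit that a count of 0 allows is 3 counts, or 0.111 CPM against 0.171 CPM with DMSO. The counting interval of the log2 difference at 5 μM reaches up to −0.06, close to 0, so no fold is given. The near-identical copies MAP1LC3B2 and GABARAPL3 held at most 15 counts in any library.

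In CDK16-sh1, 2 of the 5 ATG8 genes were at least 2-fold higher than in the scramble library. GABARAPL1 had 306, 794 and 367 counts in the scramble, CDK16-sh1 and CDK16-sh2 libraries, with log2 fold changes of 1.09 (counting interval 0.91 to 1.29) and 0.37 (counting interval 0.15 to 0.59). MAP1LC3A had 49, 137 and 63 counts, 1.18 (counting interval 0.73 to 1.71) and 0.45 (counting interval −0.09 to 1.04). GABARAP, with 1809, 4034 and 2333 counts, was at 0.88 and 0.47, while MAP1LC3B, with 1600, 1740 and 2033, was at −0.16 and 0.45. All 5 were above the scramble library in CDK16-sh2, within the narrow range of 0.37 to 0.47. Of the 2266 exon bases of GABARAP, 691 are shared with CTD-2545G14.7 on the same strand, so strand cannot separate these reads. CTD-2545G14.7 had 1684, 4117 and 1876 counts in the knockdown experiment, and its part in the values of GABARAP was not tested. A further 571 bases are shared with CTD-2545G14.6 on the other strand. In CDK16-sh1 the log2 fold changes of all genes went with GC content (Pearson r = 0.478 across 12940 genes, which are not independent replicates), and with the trends on gene length and GC content removed 2 members stayed past 2-fold in place of 3. MAP1LC3A, with a GC content of 64.5%, was then inside 2-fold, at 0.47. Of all genes 1.95% were at least 2-fold higher with these trends removed. Among the values given above for CDK16-sh1, the alternatives run took ULK1 down to −0.29 and ATG14 up to 0.05, the other direction. RB1CC1 there reached up to −0.26.

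The receptors were split at 5 μM. NBR1, a receptor for ubiquitinated aggregates and peroxisomes on chromosome 17 from 43170481 to 43211689, held 8387 counts with DMSO, 4841 with 1 μM Reb and 730 with 5 μM Reb, lower at each dose, with −0.82 (counting interval −0.87 to −0.77) and −2.41 (counting interval −2.53 to −2.30). TAX1BP1, a receptor for ubiquitinated cargo on chromosome 7 from 27739331 to 27844564, had 10009, 9691 and 14110 counts and was at −0.07 (counting interval −0.11 to −0.03) and 1.60 (counting interval 1.57 to 1.64). Under library totals TAX1BP1 was at 0.91 at 5 μM, just inside 2-fold. OPTN and CALCOCO2, receptors in the removal of bacteria and damaged mitochondria, lay between, at −0.75 and −0.90 at 5 μM, and under library totals both were past 2-fold, at −1.44 and −1.59.

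SQSTM1 encodes p62, the receptor that autophagy itself degrades, and lies on chromosome 5 from 179806398 to 179838078. It was 2-fold away from its control in both experiments, on opposite sides. The scramble library held 6726 counts, CDK16-sh1 19208 and CDK16-sh2 8472, which gave log2 fold changes of 1.24 (counting interval 1.20 to 1.28) and 0.44 (counting interval 0.39 to 0.49). The former was the highest value in CDK16-sh1 of the members that passed the filter, and the gap between the hairpins was beyond counting error. With Reb it had 7722, 4054 and 1675 counts, −0.95 (counting interval −1.01 to −0.90) at 1 μM and −1.10 (counting interval −1.17 to −1.02) at 5 μM. Under TMM the doses thus gave values close to each other, which they did not for NBR1 and ULK1, while under library totals the values were −0.90 and −1.79. With the trends on gene length and GC content removed, SQSTM1 was at −0.52 at 5 μM. Its exons share 1582 of 7654 bases with C5orf45 on the other strand. C5orf45 had 2277, 8082 and 2361 counts in the knockdown experiment and 1906, 1468 and 299 in the Reb experiment, and its part in the values of SQSTM1 was not tested.

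FOXO3, a forkhead transcription factor that activates autophagy genes, and STX17, the SNARE protein of the autophagosome, were both 2-fold higher at 5 μM. FOXO3, on chromosome 6 from 108559835 to 108684774, had 1354, 1237 and 2185 counts, with −0.15 (counting interval −0.27 to −0.04) at 1 μM and 1.80 (counting interval 1.70 to 1.90) at 5 μM, and 1.11 by library totals. STX17, on chromosome 9 from 99906633 to 99970341, had 240, 263 and 301 counts and was at 0.11 and 1.43, or 0.74 by library totals at the high dose. In the knockdown experiment FOXO3 had 516, 619 and 488 counts, log2 fold changes of −0.01 and 0.03. STX17 had 289, 175 and 392 counts, and its −0.99 (counting interval −1.28 to −0.72) was the lowest value in CDK16-sh1 of the members that passed the filter, whereas it was at 0.54 (counting interval 0.32 to 0.77) in CDK16-sh2.

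A comparison within a library does not depend on how libraries are scaled to each other, so 8 pairs of related members were also followed as shares of the counts of the pair. The pairs were chosen after their values had been seen, and the shares are of counts and not of transcripts, since the genes differ in length. WIPI1 made up 45.0% of the counts of WIPI1 and WIPI2 with DMSO (counting interval 43.3% to 46.7%), 45.9% at 1 μM and 9.93% at 5 μM (counting interval 8.18% to 11.9%). ATG2A made up 59.2%, 45.8% and 14.7% of ATG2A and ATG2B, and ATG4D 35.0%, 32.2% and 11.8% of ATG4D and ATG4B. In each of these families the share of one gene was lower at 5 μM, beyond counting error, whichever scaling is used. Such shares do not remove a trend on GC content, which all genes showed at 5 μM (Pearson r = −0.217). GC content was 49.4% for WIPI1 and 54.2% for WIPI2, and 64.0% for ATG2A and 44.2% for ATG2B. For ATG4D it was 64.8% and for ATG4B 60.9%. The part of GC content in these shares was not tested. NBR1 made up 45.6% of NBR1 and TAX1BP1 with DMSO, 33.3% with 1 μM Reb and 4.92% with 5 μM Reb, the largest change of the 8 pairs, by 16.2-fold in the ratio of counts. MAP1LC3B made up 69.1%, 79.2% and 96.9% of MAP1LC3B and GABARAPL1, the opposite direction. UVRAG made up 26.5%, 30.4% and 10.99% of UVRAG and ATG14.

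Between the hairpins these shares differed as well. WIPI1 was at 46.7%, 28.7% and 45.5% of WIPI1 and WIPI2 in the scramble, CDK16-sh1 and CDK16-sh2 libraries, and GABARAPL1 at 26.04%, 43.2% and 25.1% of GABARAPL1 and GABARAPL2. For both pairs CDK16-sh2 stayed within the counting interval of the scramble library, and CDK16-sh1 did not. NBR1 was at 30.04%, 15.9% and 26.2% of NBR1 and SQSTM1. By the ratio of counts, CDK16-sh1 was the farther from the scramble library for 5 of the 8 pairs and CDK16-sh2 for the other 3. Those 3 were ATG2A, at 80.3%, 88.0% and 91.4% of ATG2A and ATG2B, ATG4D, at 29.7%, 30.5% and 35.7% of ATG4D and ATG4B, and UVRAG, at 50.4%, 58.4% and 39.2% of UVRAG and ATG14, which lay on opposite sides of the scramble library.

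**Figure D5:**
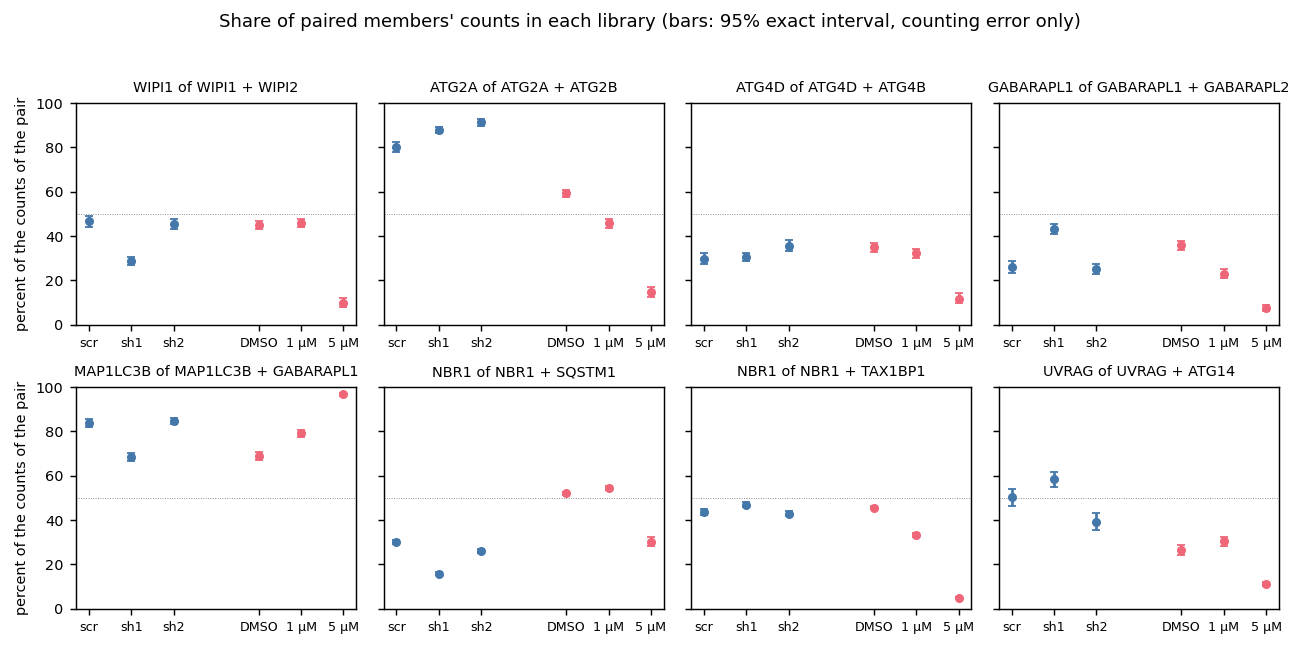
Percent of the counts of a pair of members that fall on the gene named at the left of each title, in the scramble (scr), CDK16-sh1 and CDK16-sh2 libraries (blue) and the DMSO, 1 μM and 5 μM Reb libraries (red), with exact 95% intervals for counting error and a dotted line at equal counts. NBR1 is at 45.6%, 33.3% and 4.92% of NBR1 and TAX1BP1 from DMSO to 5 μM Reb, while MAP1LC3B is at 69.1%, 79.2% and 96.9% of MAP1LC3B and GABARAPL1.

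The main test across genes took the treated libraries of an experiment as 1 group against 1 control, so that how far the hairpins, or the doses, lay apart stands for the spread. With edgeR's quasi-likelihood test, Benjamini-Hochberg adjustment over all genes and thresholds of 0.05 for the adjusted p-value and 2-fold, 0 of the 36 members were called in the knockdown experiment, where 0% of all genes were called. By unadjusted p-value, 0 members and 382 genes were under 0.05, and the smallest p of a member was 0.103, for SQSTM1 (edgeR's quasi-likelihood test, adjusted p = 0.9997). With Reb, 0 of the 35 members were called, where 0.0767% of all genes were, 0 members and 228 genes were under 0.05 by unadjusted p-value, and the smallest p of a member was 0.12, for ATG14 (edgeR's quasi-likelihood test). DESeq2 also called 0 members in each experiment.
This fit counts the gap between the doses as spread. An alternative with a linear term for log2(dose + 1) called 9 members: ULK1, WIPI1, ATG2A, ATG4D and NBR1 lower, where 11.1% of all genes were, and ATG14, MAP1LC3B, TAX1BP1 and FOXO3 higher, where 13.3% of all genes were. In that fit the log2 change of ATG14 over the dose range was 2.99 (edgeR's quasi-likelihood test, adjusted p = 0.000161) and that of ULK1 was −3.10 (adjusted p = 0.0015). It assumes a straight line through 3 libraries, and it called 3832 of the 15655 genes. Its p-values rest on how far the libraries lie from that line and hold no spread between replicates.

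The control libraries of the experiments also lay apart. Scaled together, DMSO was at least 2-fold below the scramble library for 4 of 36 members and at least 2-fold above for 2, where 12.3% and 13.1% of all genes were. These members were MAP1LC3A (−2.86), GABARAP (−1.41), ATG5 (−1.28) and STX17 (−1.11), and ATG2B (1.48) and ATG14 (1.08). The median absolute difference of the members was 0.52, against 0.56 for all genes. It exceeds the median absolute log2 fold change of the members in CDK16-sh1 (0.34), CDK16-sh2 (0.38) and 1 μM Reb (0.17) and is below that at 5 μM (1.09). The controls also differ in experiment, vector and vehicle, which cannot be told apart.

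Lists of genes around the members were counted the same way, under TMM. Beside the counts stand the shares of all genes, which for CDK16-sh1 were 6.86% lower and 4.33% higher, for CDK16-sh2 7.62% and 2.2%, for 1 μM Reb 1.92% and 1.28%, and for 5 μM Reb 27.2% and 23.6%. Of the regulators upstream, the genes of mTORC1 and AMPK, 32 of 33 passed the filter in each experiment. In CDK16-sh1 4 of these were 2-fold lower and 0 higher, in CDK16-sh2 3 and 0, at 1 μM Reb 0 and 0, and at 5 μM Reb 2 and 12. At their ends at 5 μM were MTOR, the kinase that restrains ULK1 (3695, 2810 and 401 counts, −2.09), and PRKAB2, an AMPK subunit (759, 950 and 3096 counts, 3.13). Of 25 further core genes, 22 passed in each experiment, with 1 lower in CDK16-sh1 and 4 lower and 6 higher at 5 μM. Of 21 further receptors, 3 of 20 were lower and 7 higher at 5 μM, from CALCOCO1 at −3.11 to NUFIP1 at 2.40, and 0 of 19 passed 2-fold with either hairpin under TMM. Of 20 fusion genes 5 were lower and 8 higher at 5 μM, with the lysosomal membrane protein gene LAMP1 at 2.22 (4969, 4833 and 10724 counts), and 4 were lower in CDK16-sh2, with RAB2A at −2.85 (1541, 1757 and 197 counts). Of 15 transcription factors, 1 was 2-fold higher in CDK16-sh1, TFEB (27, 82 and 39 counts, 1.27), and at 5 μM 3 were lower and 5 higher. Under library totals, a count added after the data had been seen, the genes lower and higher at 5 μM numbered 9 and 7 of the upstream regulators, 6 and 4 of the core genes, 5 and 2 of the receptors, 7 and 3 of the fusion genes and 7 and 2 of the transcription factors, where 43.4% and 11.7% of all genes were. The split between lower and higher in each list thus depends on the scaling. With the hairpins library totals added 1 lower upstream regulator in CDK16-sh1, and 2 lower receptors and 1 lower transcription factor in CDK16-sh2. Of all genes 7.36% and 11.1% were 2-fold lower in these libraries under library totals. At 1 μM 0 genes of any of these lists passed 2-fold under either scaling. The genes named from the lists stand at their ends and were chosen after their values were seen.

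Neighbouring genes bear on several of these counts. Of the 37 members, 23 had exon bases that also belong to another symbol, and for 9 the share with some other symbol was above 10%. The libraries were stranded by their kit, but whether strand was used in counting is not given in the sources used here, so reads of WIPI1 and ARSG (828 bases), SQSTM1 and C5orf45, ATG7 and VGLL4 (1596 bases) or ATG10 and RPS23 may have been counted for either, discarded or kept apart. The part of such sharing in the differences was not tested.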

How the data were processed

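RNA of 6 MDA-MB-231 libraries, 1 per condition, was sequenced by the authors as stranded mRNA libraries on a HiSeq X 10. The submitters' processing notes name Trimmomatic, featureCounts, Subread 1.5.1 and GRCh38, and the aligner and annotation are not given in the sources used here. The authors deposited whole-number read counts per gene symbol and the RPKM computed from them, each count divided by gene length and library total. Counts were analysed in R 4.3.3 with edgeR 4.0.16 and DESeq2 1.42.0, with TMM scaling, a prior count of 2 and a mean of at least 1 CPM. GC content came from GENCODE 29 transcripts. The test was tried on simulated counts with known changes, and the outcome is not given here. No molecular identifiers were used to remove copies of a molecule, so intervals and the floor of 3 counts cover counting error only. Total counts ranged from 25838443 to 50303269. The members, the lists and the rule for named genes were chosen with earlier results of these data known. That rule took all members by count, and in full those fixed by role, those past 2-fold in a treated library, and the largest rise and fall in each. Alternatives were other scalings, RPKM plus 0.1, other filters, a prior count of 0.5, a threshold of 1.5-fold, removal of GC and length trends, DESeq2 and a dose term.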

Additional observations from a re-analysis of the deposited data

How the results depend on the processing

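Of 1276 values of single members under the alternatives run, 263 moved beyond their counting interval, and of 125 medians, counts and calls 19 moved. A change from past 2-fold to the other direction was possible only for the members past 2-fold, 3 in CDK16-sh1 and 20 at 5 μM Reb. It occurred in 0 values. Members inside 2-fold changed direction with the scaling in CDK16-sh2 and at both Reb doses, as named above. In CDK16-sh1 the direction held under every scaling. Among all the alternatives run it changed there for ULK1, ATG101, PIK3C3, ATG14, ATG2B, ATG4D, ATG5, ATG12, GABARAPL2, TAX1BP1 and FOXO3. Further members did so elsewhere, such as PIK3C3 in CDK16-sh2 and ATG12 at 1 μM Reb. At a threshold of 1.5-fold, 3 members were lower and 8 higher in CDK16-sh1, 2 lower and 1 higher in CDK16-sh2, 6 lower at 1 μM Reb, and 12 lower and 17 higher at 5 μM Reb. No share of all genes past 1.5-fold stands beside these counts, so they are not a result about the members. Under library totals 1 member was lower in CDK16-sh1, 2 were lower in CDK16-sh2 (1 by RPKM plus 0.1), and 3 were higher at 5 μM (3 by RPKM), while the median was 0.0774 in CDK16-sh2 (0.0766 by RPKM) and −0.11 at 5 μM (−0.10 by RPKM). Of all genes under library totals, 7.36% were 2-fold lower in CDK16-sh1, 11.1% were lower in CDK16-sh2 and 11.7% were higher at 5 μM. With no filter on low counts 1 member, ULK2, was higher at 1 μM, where 7.6% of all genes were. The median was 0.30 in CDK16-sh1 without the trend on gene length and 0.43 at 5 μM without those on GC content and length. GC content was known for 84.3% to 84.6% of genes. With dose as a linear term 9 members were called. No replicate could be left out, since each condition had 1 library, and no paired analysis was possible because the groups compared share fewer than 2 replicate numbers. The shift at 5 μM limits statements on direction to members whose sign held under every scaling, and the cause of the shift was not tested.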
